A study of Drosophila melanogaster with 3 samples.

Results

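The nuclear genes for the respiratory chain and ATP synthase were examined in an anti-GFP chromatin immunoprecipitation (ChIP-seq) of Hairy, a repressor that belongs to the HES group of basic helix-loop-helix factors. The members were the protein-coding genes of the dm6 Ensembl annotation whose symbol begins with ND- (complex I), UQCR- (complex III), COX and a digit (complex IV) or ATPsyn (complex V). This gave 80 of 13945 coding genes. Within them, 17 carry the symbol of another member plus an L, such as ND-20L, and are given apart as L members, which left 63 subunit genes. The chromatin came from whole wandering larvae of the last instar, males and females pooled, of a stable transgenic Drosophila melanogaster line whose h gene product bears GFP at the C terminus (strain 15T-GFP, h-eGFP). All 3 samples are biological replicates of this 1 group, so there was no second condition to compare, and no input or control library was analysed here. A gene was called bound if the summit of a peak in the authors' list of 10233 reproducible peaks lay from 1 kb upstream of the gene to its end. Since the whole animal was used, a site bound in few cells and a site bound weakly in many cannot be told apart.

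Oxidative phosphorylation passes electrons from NADH and succinate through complexes I to IV to oxygen, and complex V uses the proton gradient built on the way to make ATP. Most subunits are encoded in the nucleus, and their genes are active in nearly every tissue. Drosophila also holds duplicated copies of several subunit genes, many of them used mainly in the testis. Hairy is best known for repressing segmentation and neural genes together with the corepressor Groucho, and it has also been tied to metabolic genes in flies kept at low oxygen.

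The sequences under several of the peaks are shown first, because the peaks named below are described by their place between neighbouring starts and by the short motifs they hold. Each is the stretch within 100 bp of the strongest summit that lies outside annotated exons of coding genes, read 5′ to 3′ on the gene's strand from the RefSeq Release 6 genome, the dm6 assembly. Capitals mark a match on either strand to one of the 8 motifs searched (listed with the motif counts below), and a sequence without capitals holds none.
ND-24, chrX:17632180-17632253, plus strand: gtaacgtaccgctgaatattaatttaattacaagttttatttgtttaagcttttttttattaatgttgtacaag
ND-51, chr2L:6062772-6062972, minus strand: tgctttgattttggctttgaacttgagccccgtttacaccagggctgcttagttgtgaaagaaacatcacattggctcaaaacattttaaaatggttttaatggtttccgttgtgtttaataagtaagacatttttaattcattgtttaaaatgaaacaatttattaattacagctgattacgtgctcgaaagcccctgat
ND-ASHI, chrX:6679279-6679479, minus strand: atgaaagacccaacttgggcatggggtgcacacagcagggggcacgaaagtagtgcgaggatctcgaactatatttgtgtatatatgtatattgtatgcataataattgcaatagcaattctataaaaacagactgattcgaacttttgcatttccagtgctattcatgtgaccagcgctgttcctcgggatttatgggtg
ND-MNLL, chrX:7893799-7893982, minus strand: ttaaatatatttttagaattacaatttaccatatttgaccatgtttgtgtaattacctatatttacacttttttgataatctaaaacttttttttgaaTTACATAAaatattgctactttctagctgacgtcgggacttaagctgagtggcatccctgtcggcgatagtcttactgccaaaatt
COX7B, chr3L:17425261-17425461, plus strand: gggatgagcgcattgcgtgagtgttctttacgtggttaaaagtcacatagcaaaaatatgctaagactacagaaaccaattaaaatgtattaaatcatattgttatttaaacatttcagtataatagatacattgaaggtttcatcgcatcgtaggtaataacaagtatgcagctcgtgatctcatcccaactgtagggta
COX5B, chr2L:6557503-6557654, plus strand: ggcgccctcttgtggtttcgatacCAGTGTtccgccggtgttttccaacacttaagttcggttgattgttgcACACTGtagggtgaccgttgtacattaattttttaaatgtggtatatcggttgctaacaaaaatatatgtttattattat
COX7AL2, chr2L:2193553-2193753, minus strand: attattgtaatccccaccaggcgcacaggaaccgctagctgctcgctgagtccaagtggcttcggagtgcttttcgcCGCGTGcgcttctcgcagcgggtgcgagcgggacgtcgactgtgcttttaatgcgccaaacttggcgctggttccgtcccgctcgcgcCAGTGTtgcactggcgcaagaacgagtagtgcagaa

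Of these, the COX5B stretch held ACACTG at a pair of places, the COX7AL2 stretch held 1 ACACTG and 1 class C site (CACGCG, the site Hairy prefers in vitro), and the ND-MNLL stretch held TTACATAA. The ND-51, ND-ASHI and COX7B stretches held none of the motifs. Nor did the ND-24 stretch printed here, but the bases around it, within 100 bp of that summit, hold ACACTG.

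Binding was found at 27 of the 80 members, or 33.8%, against 36.7% of all coding genes. Subunit genes and L members differed in their counts. Of the 63 subunit genes 26 were bound, or 41.3% (exact 95% interval 29.0 to 54.4), and of the 17 L members 1 was bound, or 5.88% (0.149 to 28.7). The L count depended on the window. It was 5 of 17, or 29.4%, with 5 kb before and 1 kb after the gene (52.5% of all coding genes). It was 2 of 17, or 11.8%, with summits given to the nearest coding start, and 0 within 500 bp of an own start. In the wide window, COX5BL and COX7CL were reached by the strongest summits of COX5B and COX7C, already counted for those genes. The intervals are Clopper-Pearson intervals over genes and cover counting error only, since neighbouring genes can share a peak. They treat genes as independent, and their overlap is not a test. Among the 10233 strongest peaks of each replicate, called its top list, the subunit genes bound numbered 30, 26 and 26 in replicates 1, 2 and 3, a mean of 43.4% ± 3.67 (SD, n = 3). The same lists bound 37.6% ± 0.71 of all coding genes (SD, n = 3). The L members had 1 bound in each of the replicate top lists. The share of subunit genes thus lay above that of all coding genes in each replicate, and the interval around it includes 36.7%.

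By complex, 13 of 34 complex I subunit genes were bound (38.2%, exact 95% interval 22.2 to 56.4), 2 of 6 for complex III (33.3%, 4.33 to 77.7), 5 of 11 for complex IV (45.5%, 16.7 to 76.6) and 6 of 12 for complex V (50%, 21.1 to 78.9). In the replicate top lists the shares were 39.2% ± 1.70 for complex I, 27.8% ± 9.62 for complex III, 48.5% ± 5.25 for complex IV and 58.3% ± 8.33 for complex V (SD, n = 3). All 4 intervals overlap one another and include 36.7%. No order among the complexes was tested, and none is read from these counts. With summits given to the nearest coding start only, complex IV had 2 of 11, or 18.2%. With any 1 replicate left out, by keeping only reproducible summits in the top lists of the others, complex III had 1 of 6, or 16.7%.

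**Figure D1:**
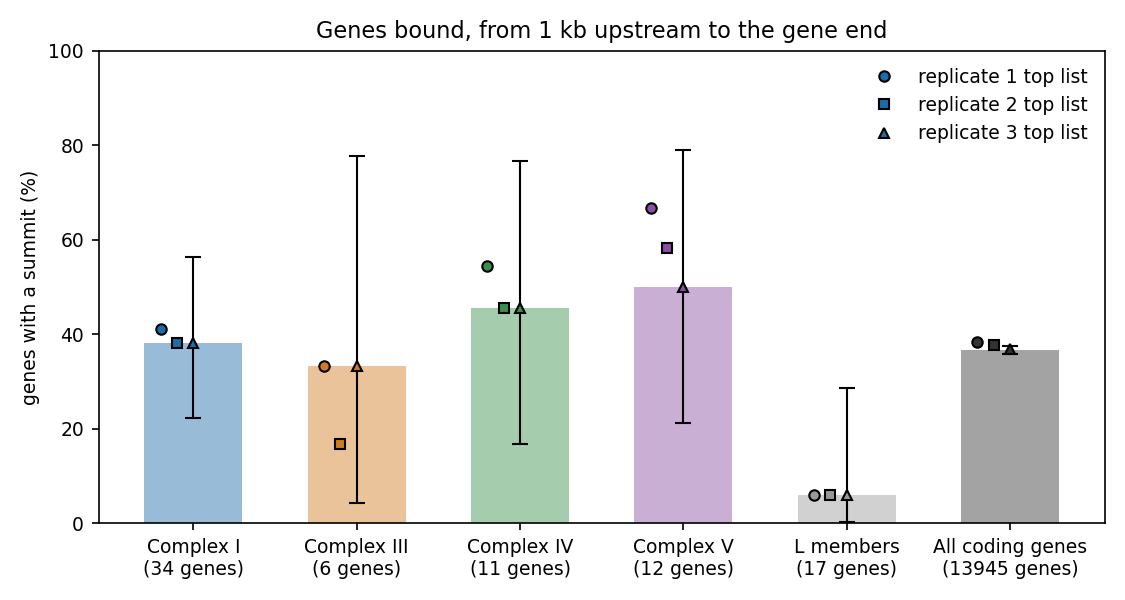
Percentage of genes bound (y axis) for the subunit genes of each complex, the L members and all coding genes. Bars give the reproducible list, error bars the exact 95% interval over genes, and points the top list of each replicate. The bars of the 4 complexes stand between 33.3% and 50%, near the 36.7% of all coding genes, and that of the L members at 5.88%.

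The peaks at bound members were of middling strength. The authors' signal value, a score without a stated scale, was used to rank peaks within a list. The strongest summit of each bound member had signal values from 118.9 to 1040.8 with a median of 291.1, against a median of 281.4 for the 5120 bound coding genes. Of the 27, 21 lay above the median of the reproducible list (202.1), or 77.8%, against 67.5% of bound coding genes. There were 24 inside a peak of all 3 top lists, or 88.9%, against 79.7%, and 2 among the 500 strongest, or 7.41%, against 10.7%. The weakest were ND-13B (118.9) and UQCR-Q (120.0), just above the list's lowest value of 105.2. In the longer list of 30000 pooled peaks, 8 of the 53 members that were not bound had a summit, led by ND-B14.5B (87.0), UQCR-C2 (77.4) and ND-MLRQ (74.0), and 45 had none. Bound or not, 35 of 80 members, or 43.8%, had a summit in that list, against 52.2% of all coding genes.

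**Figure D2:**
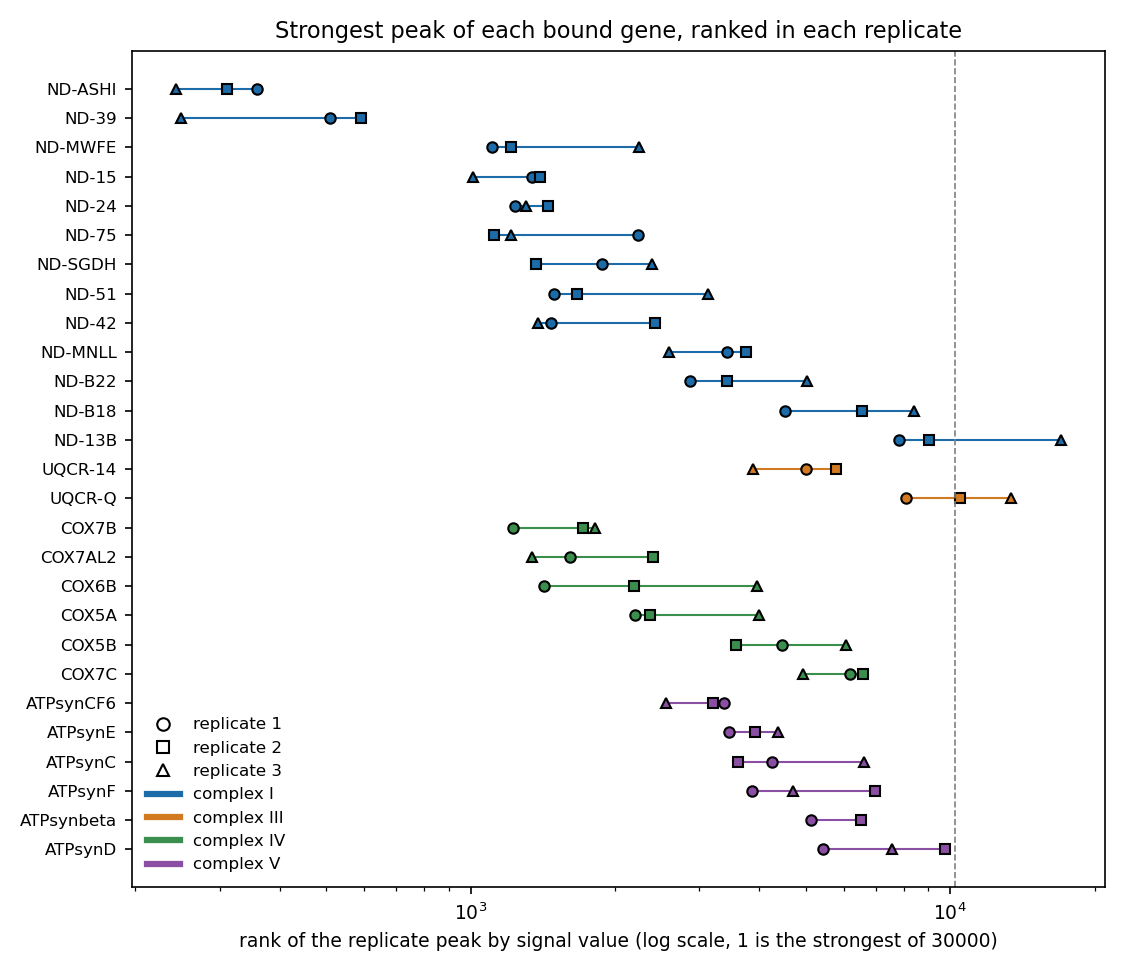
Rank by signal value (x axis, log scale, 1 is the strongest of 30000) of the peak that holds each bound member's strongest reproducible summit, in replicates 1, 2 and 3. Members run down the page by complex, and the dashed line marks the end of the top lists at rank 10233. ND-ASHI and ND-39 rank highest in each replicate, and ND-13B and UQCR-Q reach past the line.

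Complex I takes electrons from NADH and hands them to ubiquinone. Its strongest peak was at ND-ASHI (FBgn0029888), an accessory subunit, at chrX:6679077-6679545 with a signal value of 1040.8. It ranked 358, 310 and 243 in replicates 1, 2 and 3, so the replicates placed it alike. Its summit lay 261 bp upstream of the outermost ND-ASHI start and equally far from a start of Fum1, the fumarase gene, on the other strand. ND-39 (FBgn0037001), also an accessory subunit, followed with 954.4 at chr3L:20493410-20493881 and ranks of 509, 590 and 249. That summit lay 1547 bp inside the gene and 139 bp from a start of ZnT77C, a zinc transporter gene, and a weaker one of 128.0 lay 328 bp upstream of the ND-39 start.

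The accessory subunit gene ND-MWFE had a peak of 543.3 with replicate ranks of 1106, 1215 and 2245, whose summit was 194 bp upstream of its start and 27 bp from that of TppII. ND-15, another accessory subunit, had 6 summits, the strongest of 541.3 with ranks of 1342, 1393 and 1010. The annotated gene spans chr2L:114726-156030, other genes lie inside it, and the summit was 14470 bp from an ND-15 start and 49 bp from that of CG3164. None of its 6 summits lay nearer than 6402 bp to an ND-15 start. ND-24 (532.6, chrX:17632016-17632354) ranked 1240, 1452 and 1308, and its summit lay 103 bp upstream of the nearer of its 2 annotated starts, inside an intron.

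Complex I has a core of catalytic subunits conserved from bacteria. All 3 core genes of the module that takes up NADH were bound, accessory subunits not counted. They were ND-51, which binds NADH and FMN, and ND-24 and ND-75, which carry iron-sulfur clusters. Their strongest summits had signal values of 449.9 for ND-51, 532.6 for ND-24 and 513.4 for ND-75. None of the 4 core genes of the module that reduces ubiquinone was bound in the reproducible list (ND-49, ND-30, ND-20 and ND-23), although ND-23 was bound in the top lists of replicates 1 and 3. These are counts over 3 and 4 genes beside 36.7% of all coding genes, the grouping was made with the calls known, and it received no test. The ND-75 summit was 762 bp upstream of the nearest ND-75 start and 221 bp from CG1632, and that of ND-51 was 115 bp from its own start and 117 bp from CG13994.

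The other bound complex I genes encode accessory subunits. ND-SGDH (456.3), ND-42 (448.3), ND-MNLL (291.1), ND-B22 (286.2), ND-B18 (193.5) and ND-13B (118.9) had summits from 7 to 139 bp from an own start. ND-13B ranked 7833, 9013 and 16980, outside the top list of replicate 3. The 21 complex I genes not bound were ND-13A, ND-18, ND-19, ND-20, ND-23, ND-30, ND-49, ND-ACP, ND-AGGG, ND-B12, ND-B14, ND-B14.5A, ND-B14.5B, ND-B14.7, ND-B15, ND-B16.6, ND-B17, ND-B17.2, ND-B8, ND-MLRQ and ND-PDSW.

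Complex III carries electrons from ubiquinol to cytochrome c. UQCR-14 was bound 20 bp upstream of its start with a signal value of 210.2 and ranks of 5005, 5784 and 3885. UQCR-Q was bound in its 5' UTR, 50 bp upstream of the inner of its 2 annotated starts, with 120.0 and ranks of 8088, 10459 and 13397, so only replicate 1 placed that peak within its top list. The gene was also bound in the top list of replicate 3, through another peak. The core protein genes UQCR-C1 and UQCR-C2 were not bound, nor were UQCR-11 and UQCR-6.4. For UQCR-C2 a reproducible summit of 199.8 lay 240 bp beyond the upstream edge of the window, the smallest such gap of any member not bound.

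Complex IV, cytochrome c oxidase, reduces oxygen. Its 5 bound genes encode small nuclear subunits around the catalytic core, which is encoded in mitochondrial DNA. COX7B was strongest with 502.4 (chr3L:17425209-17425515, ranks 1225, 1718 and 1814), 116 bp upstream of its start. COX6B had 421.8 (chrX:19744284-19744509, ranks 1424, 2189 and 3949), 51 bp upstream of its start and 45 bp from starts of CG33932 and Rpp20. COX5A had 359.0 (chr3R:11819440-11819622, ranks 2205, 2370 and 3986), 100 bp inside the gene and 39 bp from glo. COX5B had 239.7 (chr2L:6557446-6557656, ranks 4462, 3581 and 6063), 246 bp upstream and 52 bp from IFT52. COX7C had 178.9 (ranks 6168, 6585 and 4929), 315 bp inside the gene and 49 bp from oys. Of the 5, only COX7B had a summit nearest to its own start. Not bound were COX4, COX7A, COX8, COX6AL, COX6AL2 and COX6CL. The last 3 are named as copies of subunits whose fly genes have other symbols (levy and cype), and without them 5 of 8 complex IV genes were bound, or 62.5%.

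Complex V is the ATP synthase, with a catalytic head on a central stalk, a ring in the membrane that turns with it, and a stator. The strongest summits of its 6 bound genes had signal values of 163.7 to 283.3 with a median of 228.0, and the medians were 456.3 in complex I, 165.1 in complex III and 359.0 in complex IV. ATPsynCF6, of the stator, led with 283.3 (chr3R:23356940-23357147, ranks 3371, 3210 and 2554), 982 bp upstream and 483 bp from Sec13, and had a second summit of 195.3 at 107 bp from its own start and from that of Sec13. ATPsynE (267.7, chr3R:14326860-14327089, ranks 3454, 3920 and 4381) was bound 43 bp inside the gene. ATPsynC, the proton-carrying ring subunit, had summits of 239.2 and 132.9 at 38 and 91 bp from an own start, and the first ranked 4241, 3615 and 6626. ATPsynF had 216.8 (ranks 3863, 6955 and 4701), 71 bp upstream and 55 bp from CG3548.

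ATPsynbeta, the catalytic subunit of the head, lies on chromosome 4 and had 173.0 (chr4:1031626-1032055), 23 bp upstream of the nearer of its 2 annotated starts, within the 5' UTR. It ranked 5125 and 6504 in replicates 1 and 2, and no peak of replicate 3 held its summit. ATPsynD had 163.7 (ranks 5421, 9751 and 7547) at 29 bp from cdi, and 117.3 at 39 bp from its own start. Counted by place in the enzyme, 1 of 3 genes of the head with its central stalk was bound, and 5 of 8 genes of the membrane part and stator, against 36.7% of all coding genes. This grouping too was made with the calls known. It leaves out genes with other symbols: blw, for the alpha subunit of the head, was bound (612.4), and sun was not. ATPsyngamma, of the central stalk, was not bound in the reproducible list but was in the top lists of replicates 1 and 2. Also not bound were ATPsyndelta, ATPsynB, ATPsynG, ATPsynO and ATPsynepsilonL, which is named as a copy of the subunit whose fly gene is sun.

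The only bound L member was COX7AL2, on arm 2L. Its gene is 5388 bp long, against a median of 730 bp for L members, and it held 6 summits. The strongest, with 435.9 at chr2L:2193629-2193760, ranked 1613, 2405 and 1342. It lay in an intron, 643 bp from the nearest own start, and none of the 6 lay within 500 bp of one. The subunit gene it is named for, COX7A, was not bound. The 16 other L members were ND-20L, ND-24L, ND-49L, ND-51L1, ND-51L2, ND-B14.5AL, UQCR-11L, UQCR-14L, UQCR-6.4L, COX4L, COX5BL, COX7AL, COX7CL, ATPsynCF6L, ATPsynGL and ATPsynbetaL. Among these, UQCR-6.4L had a summit in the pooled list, with a signal value of 26.2, and the other 15 had none there. With COX7AL2, that made 2 of 17 L members, or 11.8%, against 52.2% of all coding genes. With the 4 like-named genes whose subunit has another symbol added, 1 of 21 was bound, or 4.76%, and 26 of the remaining 59 members, or 44.1%.

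The summits of bound members lay mostly near a start of the gene, as did those of bound coding genes in general. The strongest summit lay a median of 115 bp from the nearest own start, within 150 bp of it in 17 of 27 and upstream of it in 21 of 27, some of these starts being internal to the gene. It lay outside the gene in 15, in an intron in 6 and in a 5' UTR in 6, and in a coding exon in 0. A start of another gene was the nearest in 12 of 27, with signal values from 163.7 to 954.4 and a median of 390.4. Where an own start was nearest, in 15, they ran from 118.9 to 1040.8 with a median of 286.2. These counts and medians for strongest summits were not set beside all bound coding genes, so none is read as particular to the members.

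Any summit counted, 24 of the 27 bound members, or 88.9%, had one within 500 bp of an own start, against 81.0% of all bound coding genes. For 17, or 63.0%, no other gene's start was nearer, against 64.9% of all bound coding genes. In the replicate top lists this share was 67.7%, 66.7% and 48.1% in replicates 1, 2 and 3, so replicate 3 stood below the others for these genes, while over all bound coding genes it was 65.1%, 64.1% and 64.8%. The 10 without such a summit were ND-15, ND-42, ND-75, ND-MWFE, COX5A, COX5B, COX6B, COX7C, ATPsynF and COX7AL2. By complex, 9 of 13 bound complex I genes, 2 of 2 for complex III, 1 of 5 for complex IV and 5 of 6 for complex V had a summit at their own start.

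**Figure D3:**
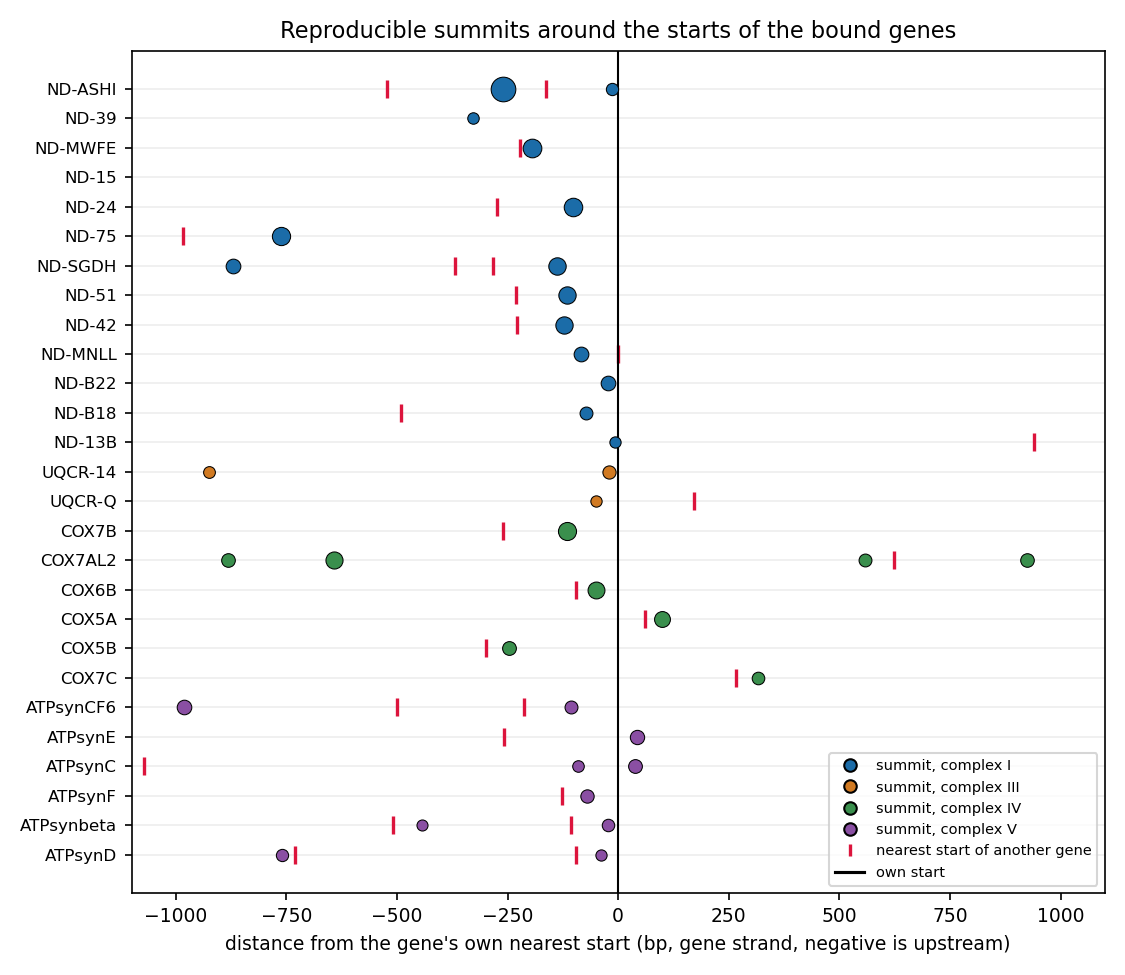
Reproducible summits (circles, area by signal value) around the starts of the 27 bound genes, as distance in bp from the gene's own nearest start on its strand (x axis, negative is upstream). Red ticks mark the nearest start of another gene to each summit. Many circles sit in the 250 bp upstream of the start, several of them next to a red tick. ND-15, whose nearest summit is 6402 bp away, has no circle in the range shown.

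Shared starts were common among the subunit genes whether bound or not. A coding start on the opposite strand lay within 500 bp upstream of 36 of 63 subunit genes, or 57.1%, of 2 of 17 L members, or 11.8%, and of 27.4% of all coding genes. Of subunit genes with such a neighbour 19 of 36 were bound, or 52.8%, and of those without 7 of 27, or 25.9%. Over all coding genes the shares were 53.1% with and 30.6% without. ATPsynF with CG3548 (126 bp between starts), COX7B with Sec3 (260 bp), ND-51 with CG13994 (232 bp) and ATPsynD with mRpL55 (95 bp) are examples with a summit between both starts. A peak between a pair of starts cannot be given to either gene from its position alone.

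The window is longer for longer genes, so length bears on every share above. Subunit genes had a median length of 1112 bp, against 2166 bp for all coding genes. Below 1 kb, 8 of 23 subunit genes were bound, or 34.8%, against 15.3% of coding genes of that length, and L members had 0 of 12. From 1 to 2 kb it was 12 of 28, or 42.9%, against 26.8%, and from 2 to 5 kb 4 of 7, or 57.1%, against 39.2%. At 5 kb and over, 2 of 5 were bound, or 40.0%, against 61.3%. In the 3 shorter classes, which hold 58 of the 63 subunit genes, their share lay above that of all coding genes, and no test was made of this. With length and a divergent neighbour held alike (1 to 2 kb), 9 of 16 subunit genes with a divergent start were bound, or 56.2%, against 47.8% of coding genes, and 3 of 12 without one, or 25.0%, against 18.2%.

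**Figure D4:**
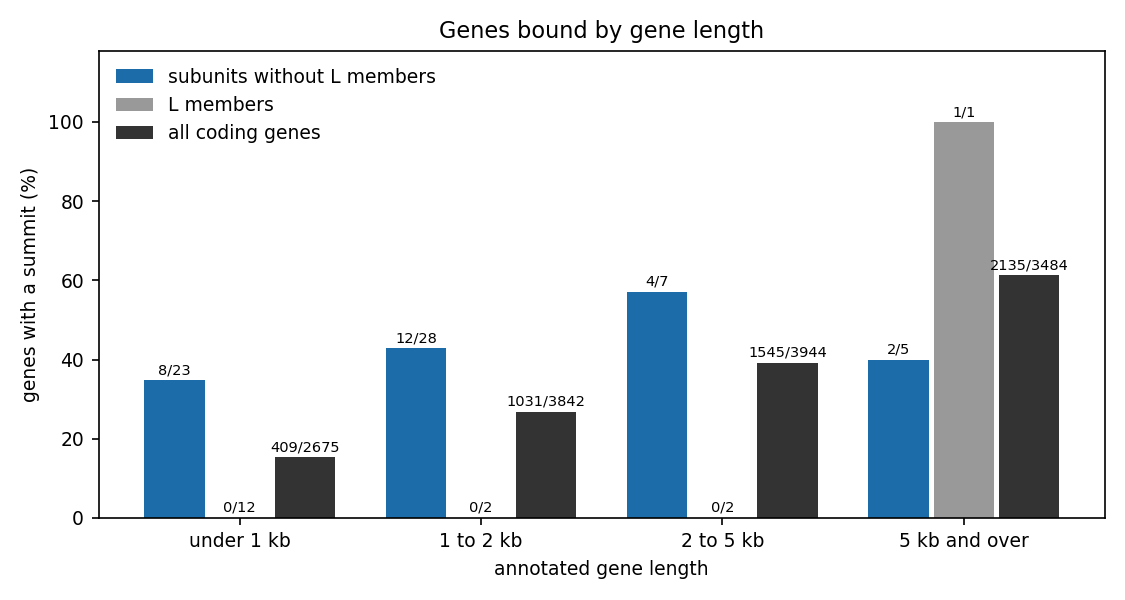
Percentage of genes bound (y axis) by annotated gene length (x axis) for subunit genes, L members and all coding genes, with bound and total gene numbers over each bar. Subunit genes stand above all coding genes in the 3 shorter classes, with 34.8% against 15.3% below 1 kb, and below them in the longest, which holds 5 subunit genes.

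Other short housekeeping genes give a scale. Mitochondrial ribosomal protein genes were bound at 40 of 73, or 54.8% (exact 95% interval 42.7 to 66.5), and cytoplasmic ones at 76 of 92, or 82.6% (73.3 to 89.7). The mitochondrial set had a median length of 909 bp, with a divergent coding start within 500 bp of 72.6%. The cytoplasmic set had a median length of 1315 bp, with such a start at 39.1%. The interval of the 63 oxidative phosphorylation subunit genes, 29.0 to 54.4, overlaps that of the mitochondrial set and not that of the cytoplasmic set, and these differences were not tested.

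By chromosome, 7 of 12 subunit genes on the X were bound, or 58.3%, against 40.4% of all X-linked coding genes. On the autosome arms 19 of 51 were bound, or 37.3%, against 36.0%. The X-linked ones were ND-ASHI, ND-24, ND-75, ND-MNLL, ND-B18, UQCR-14 and COX6B. All 17 L members lie on autosome arms.

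Short motifs were counted in promoters, from 250 bases before to 50 after each gene start, on both strands. The motifs were TATCGATA (the DRE, bound by DREF and BEAF-32), GGTCACAC (Ohler 1, bound by M1BP), CACGTG (the class B E-box) and CACGCG (the class C site). The hexamer ACACTG was counted as well, because it led in earlier results of these data, so its share at bound promoters and summits is not independent support. GAGAGA, the core of the element bound by GAGA factor, was another. The last were TTACGTAA and TTACATAA, forms of the core of an element described at fly genes for mitochondrial energy metabolism. The E-box and the class C site differ by 1 base, so no place counts as both. The end of Ohler 1 is the start of ACACTG, so their counts are not separate.

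The class C site was in the promoters of 4 of 27 bound members, or 14.8%, and of 0 of the 37 subunit genes not bound, against 6.12% of all coding promoters. It was in 7.79% of promoters of bound coding genes and in 5.14% of those not bound. The 4 were ATPsynCF6, COX5A, COX6B and COX7C. Within 100 bp of the strongest member summits the site was found once in 27, at COX7AL2, or 3.70%. The share was 7.82% of reproducible summits within 500 bp of a coding start and 6.24% of all reproducible summits. The COX7AL2 summit, 643 bp from the nearest coding start, lies outside the first of these sets. The class B E-box was in 3 of 63 subunit promoters, or 4.76%, against 4.20% of all coding promoters, and in 0 of 27 summit windows, against 2.46%.

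The class C sites of 3 of these promoters are shown with 10 bases on either side, since these are the only matches among subunit promoters outside COX7C. Capitals mark the site on the gene's strand, and the reverse complement is CGCGTG.
ATPsynCF6, chr3R:23356054-23356079, minus strand: atacacccatCACGCGcacatcacta
COX5A, chr3R:11819292-11819317, plus strand: aatcaaatagCACGCGtcaagttgaa
COX6B, chrX:19744474-19744499, minus strand: catttacctgCGCGTGtcgcagtttc

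Read on the gene's strand, these sites began 5 bases upstream of the ATPsynCF6 start, 57 upstream of COX5A and 154 upstream of COX6B. The ATPsynCF6 site thus ran onto the start itself.

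Ohler 1 was in 14 of 63 subunit promoters, or 22.2%, against 7.70% of all coding promoters, and in 1 of 17 L members, or 5.88%. The share was 22.2% in bound members and 21.6% in subunit genes not bound, while over all coding genes it was 10.6% in bound and 6.01% in unbound genes. ACACTG was in 38.1% of subunit promoters against 18.9% of all coding promoters, with 40.7% in bound members and 35.1% in subunit genes not bound. In 12 of the 14 subunit promoters Ohler 1 ran on into ACACTG, a form found in 3.71% of all coding promoters and in 0 of 17 L members. Within 100 bp of the strongest summits Ohler 1 was found at 1 of 27 (3.70%) and ACACTG at 7 of 27 (25.9%), against 4.65% for Ohler 1 and 19.1% for ACACTG among all reproducible summits near a coding start. The ACACTG count includes COX7AL2, whose summit lies outside that comparison set.

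The Ohler 1 sites of 5 of the 6 bound members that hold one are set beside those of 6 of the 8 such subunit genes not bound, with 10 bases either side where the window allows, since the promoters of both hold the same letters. Capitals mark the site, which reads GTGTGACC where it stands on the other strand. The bound members come first.
ATPsynC, chr3R:31219779-31219806, minus strand: ctactgttatGGTCACACtgcgcctatt
ATPsynD, chr3R:19094885-19094912, plus strand: gcagctgataGTGTGACCgacccgaggg
COX5A, chr3R:11819314-11819341, plus strand: tgaagatgcaGTGTGACCgcaattaaat
COX5B, chr2L:6557802-6557829, plus strand: actttaccgcGGTCACACtgatccatag
COX7B, chr3L:17425476-17425503, plus strand: acaacacaacGGTCACACtgttcaacac

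The members not bound follow, with both sites of ND-PDSW.
COX4, chr2L:19958641-19958668, plus strand: ttcgagatgtGGTCACACttctctgcat
ND-13A, chr2L:5100262-5100289, minus strand: taaataaccaGTGTGACCgctgatcggt
ND-18, chrX:19492408-19492435, plus strand: ccgctcgcctGGTCACACtggcactggc
ND-ACP, chr3L:1329972-1329998, plus strand: ttgcgcatacGGTCACACtgctacctt
ND-B17, chr2L:15751076-15751103, minus strand: ttaagagtgcGGTCACACtggcggcaac
ND-PDSW, chr2L:3466070-3466097, plus strand: agcgaagccaGTGTGACCgcagtgtgcc
ND-PDSW, chr2L:3466120-3466147, plus strand: tgcggcatagGTGTGACCactacctcga

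The DRE was in 14.3% of subunit promoters against 9.36% of all coding promoters, and in 0 of 17 L members. It was in 11.1% of bound members and in 16.2% of subunit genes not bound. GAGAGA was in 2 of 63 subunit promoters, or 3.17%, against 12.3% of all coding promoters. TTACGTAA was in 0 of 63 and TTACATAA in 2 of 63, or 3.17%, against 0.452% of all coding promoters for TTACGTAA and 2.15% for TTACATAA.

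Related genes with other symbols came from a list of 34, of which 32 were found in the annotation and 16 were bound, a count to be read against the 36.7% of all coding genes. The groups within the list are small. Complex II, which feeds electrons from succinate and is also a TCA cycle enzyme, had SdhA, SdhB, SdhC and SdhD bound (signal values 342.4, 112.4, 260.0 and 170.5) and its copies SdhAL and SdhBL not bound. Both genes of cytochrome c, the carrier between complexes III and IV, were bound. Cyt-c-p, used throughout the body, had 1316.2 with ranks of 249, 182 and 174, at 985 bp from its start. Cyt-c-d, which acts in the male germline, had 1087.7 with ranks of 299, 313 and 367, at 356 bp from its own start and 122 bp from CG31808. These 2 exceed the strongest member peak of 1040.8.

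Of 7 subunit genes with other symbols, 6 were bound. They were Cyt-c1 and RFeSP (complex III, 164.4 and 111.4), ox (complex III, 172.9), levy and cype (complex IV, 431.1 and 124.3) and blw, the alpha subunit of ATP synthase (612.4, 111 bp from its own start), and sun was not bound. The complex I assembly factor CIA30 had the strongest peak of the list, 2241.1 with ranks of 59, 51 and 86, at 98 bp from its own start, and the copper chaperone Cox17 had 469.0. The assembly genes Scox, Surf1, Cox10, Cox11, sicily and Bcs1 were not bound. Among 9 regulators of mitochondrial genes, ewg, the fly relative of NRF-1 (149.4), and mtSSB, for the mitochondrial single-stranded DNA-binding protein (636.2), were bound, and srl, the PGC-1 gene, Ets97D, TFAM, PolG1, PolG2, mtTFB2 and PolrMT were not.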

How the data were processed

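Peak lists were used as the authors deposited them, on build dm6. Per the notes deposited with the lists, peaks were called for each replicate and on the pooled replicates, against 1 further library, and entered a test of irreproducible discovery (IDR) that retains peaks ranked alike between replicates; the reproducible list derives from the replicate and pooled lists. Its recovery in the replicates is therefore not independent. The replicate and pooled lists hold 30000 peaks each and the reproducible list 10233. The deposited signal value is a score with no stated scale and was used to rank peaks within a list. Read depth is unknown, and the sources used here name no aligner or caller. Lists on dm3 were not used.

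Genes and transcription starts came from Ensembl release 115 for the X, chromosome 4 and the major autosome arms (13945 coding genes). A replicate rank is that of the strongest replicate peak holding the reproducible summit. Since 1 group was measured and genes are not replicates, shares are given beside all coding genes without a test. Every member may be named, with full values for up to 5 bound genes per complex and every bound L member. The members, lists, motifs and alternatives were chosen with earlier results of these data known, and the wider definition of L members was added after seeing the data. In a check on simulated data, every gene with a summit planted in its window was called bound. Rejection of summits just outside the window was not checked. Analyses used Python 3.11.15, pandas 2.3.3, scipy 1.17.1 and pysam 0.24.0.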

Additional observations from a re-analysis of the deposited data

How the results depend on the processing

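Shares of members moved with the assignment rule, and so did the share over all coding genes. Of 72 alternative values, 28 stayed within 1 SD of the replicates and 44 moved further. That SD differed between results, from 0.00 for L members to 11.02 for the own-start share. Any change for L members therefore counted as a move. The share of all members, 33.8% as reported, was 26.2% with summits given to the nearest coding start only (33.7% of all coding genes), 30.0% within 500 bp of an own start (29.8%), 45.0% with 5 kb before and 1 kb after the gene (52.5%), 26.2% with peaks above the median signal value (24.8%), 43.8% with the pooled list (52.2%) and 30.0% with summits in all 3 top lists (29.9%). Members thus stood below all coding genes as reported, and also with any base of a peak in the window (33.8% against 38.1%). Under 3 of the other rules the shares were nearly level, with members slightly above, and no change of side is read from this. In the order in which the share of all members was listed, complex I moved to 29.4%, 32.4%, 41.2%, 32.4%, 52.9% and 35.3%. Complex III was 66.7% with the wide window, 16.7% with strong peaks, 50% with the pooled list and 16.7% with all 3 top lists. Complex IV was 18.2% by nearest start, 36.4% with strong peaks and 62.5% without like-named genes. Complex V was 41.7% by nearest start, 66.7% with the wide window, 33.3% with strong peaks, 58.3% with the pooled list and 41.7% with all 3 top lists. L members were 11.8% by nearest start, 0% within 500 bp, 29.4% with the wide window, 11.8% with the pooled list and 4.76% with 21 like-named genes. The share bound at an own start, 63.0% as reported, was 88.9% where another gene could be nearer (81.0% of all bound coding genes). It was 47.6% with strong peaks, 77.1% with the pooled list and 50% with all 3 top lists. These last values were not set beside all bound coding genes, so the changes are not read as particular to the members.

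With replicates left out in turn, shares ran from 30.0% to 32.5% for all members, 35.3% to 38.2% for complex I, 41.7% to 50% for complex V and 50% to 53.8% for own starts, stayed at 45.5% for complex IV and 5.88% for L members, and were 16.7% for complex III whichever replicate was left out, since UQCR-Q was lost. The reproducible list was not remade for this. Its summits were kept if they lay in top-list peaks of both remaining replicates, so the bound shares could only fall or stay. No paired analysis was possible because there is 1 group. Depth is unknown, so weak binding below the lists could not be assessed.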
